A study of Rattus norvegicus with 8 samples.

Results

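The genes described here encode enzymes and regulators of cholesterol synthesis in the kidney of rats fed a high-phosphorus diet. They are Hmgcs1, Idi1, Fdps, Sqle, Lss, Cyp51, Insig1 and Srebf2, and every probe set whose platform annotation lists exactly 1 of these symbols was taken. This rule gave 11 of 31099 probe sets on the Affymetrix whole-genome rat array, for 7 of the 8 genes. No probe set lists Hmgcs1 alone, and it was not analysed here. None of the 8 genes is an uptake receptor, so uptake is covered by a list of other genes. Idi1, Lss, Cyp51 and Srebf2 have 2 probe sets each, and Sqle, Fdps and Insig1 have 1 each.

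Kidney RNA of 8 rats was measured, 1 rat per array. In the HP group, 4 rats ate a diet with 1.2% phosphorus for 24 days. In the control group, 4 rats ate the AIN-93G diet with 0.3% phosphorus over the same period. All were male Wistar rats labelled as 8 weeks old. The HP diet held KH2PO4 in place of corn starch, so phosphorus, potassium and starch differed together and cannot be told apart. Average rats of each group were picked for the arrays, which means that the arrays show the spread of selected animals.

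Cells make cholesterol from acetyl-CoA through mevalonate, the isoprenoid diphosphates and squalene, which is closed into the ring of lanosterol and then trimmed to cholesterol. When sterols are scarce in the endoplasmic reticulum, the escort protein Scap carries SREBP-2, the product of Srebf2, to the Golgi apparatus. There SREBP-2 is cut, and its free end enters the nucleus and switches on the synthesis genes. When sterols are plentiful, Insig proteins hold Scap and SREBP-2 back, and the same genes are transcribed less. Tubule cells of the kidney both make cholesterol and take it up from lipoproteins and from filtered proteins.

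SREBP acts on promoters together with NF-Y, a factor that binds the letters CCAAT. The 250 bases before the annotated start were searched on both strands in RefSeq sequences of build GRCr8, which hold an entry for 7 of the 8 genes. CCAAT was present in 6 of these 7 promoters (Fdps, Hmgcs1, Idi1, Insig1, Lss and Srebf2) and in 34.0% of 33469 rat promoters of the same length. TCACNCCAC, a core form of the sterol response element, was present in 0 of the 7 and in 0.974% of all. The shorter TCACNCCA, which is the same motif less its last letter and was chosen after the sequences had been read, occurred among the 7 only in Srebf2 and in 3.24% of all. A match is only a match of letters. The windows of 30 bases below are shown for the genes whose arrays did not overlap between diets (Insig1, Lss), for the regulator of the set (Srebf2) and for the early enzymes (Idi1, Fdps). Capitals mark the motif, which reads ATTGG where CCAAT lies on the other strand.
Insig1, chr4:8057945-8057974, minus strand, motif 193 bases before the start: cgccctcctcccATTGGctcccgcggcctc
Lss, chr20:12118295-12118324, minus strand, motif 82 bases before the start: ggtgatgctctgATTGGccgcgctcgcatc
Srebf2, chr7:115543166-115543195, plus strand, motif 129 bases before the start: cttcgcgctccgATTGGctaatgcaggcct
Srebf2, chr7:115543140-115543169, plus strand, TCACNCCA match 156 bases before the start: atgacgcgccaTCACCCCAtgagccgcttc
Idi1, chr17:66547542-66547571, minus strand, motif 35 bases before the start: gtcgaagatgccATTGGctggcgaccgacc
Fdps, chr2:176804884-176804913, minus strand, motif 85 bases before the start: gaggtcattcagCCAATcagcgaactcggc

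No cholesterol synthesis probe set passed the test between diets, and most had lower means in HP kidneys. Of the 11 probe sets, 10 had a lower mean in HP kidneys, and the exception was Sqle. After quantile normalization this count was 8 of 11, with Sqle lower and with Fdps and both Srebf2 probe sets at a difference of 0.00. Centring each array on its median moves every difference on the array by -61.05 millionths of the deposited unit alike, which is more than the size of any member's difference and sets all 11 below 0 by itself. Of all 31042 probe sets tested, 57.7% had a lower mean in HP kidneys. With limma, 0 of 11 passed an adjusted p under 0.05, against 4.08% of all probe sets. At an unadjusted p under 0.05, 2 of 11 passed (18.2%), close to the 19.0% of all probe sets. Rank products, the test named in the study's methods, called 0 of 11 at an FDR under 0.05, and the smallest FDR among them was 0.19 (3.40% of all probe sets were called higher and 2.31% lower). This test orders probe sets by raw difference and so favours those of large spread, which limits what its 0 of 11 shows. The 4 HP arrays all lay below the 4 control arrays in 3 of 11 probe sets, namely both for Lss and the 1 for Insig1, while 5.81% of all probe sets showed this.

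The values are on a log scale and were made with the distribution free weighted method (DFW), which draws the values of a probe set together over all arrays. A difference in them is not a fold change. Values by array are therefore given as deviations from the mean of the control arrays, in millionths of the deposited unit. The difference between diets, HP minus control, is also given as a multiple of the pooled SD within diets, called the standardized difference, with the 95% interval of limma. The median SD within diets over all probe sets tested was 2.22 millionths. The exact permutation test of a single probe set uses 70 arrangements of 4 against 4 arrays, and its smallest two-sided p is 0.029. In whole-kidney RNA, fewer cells of a type and less RNA per cell cannot be told apart.

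**Figure D1:**
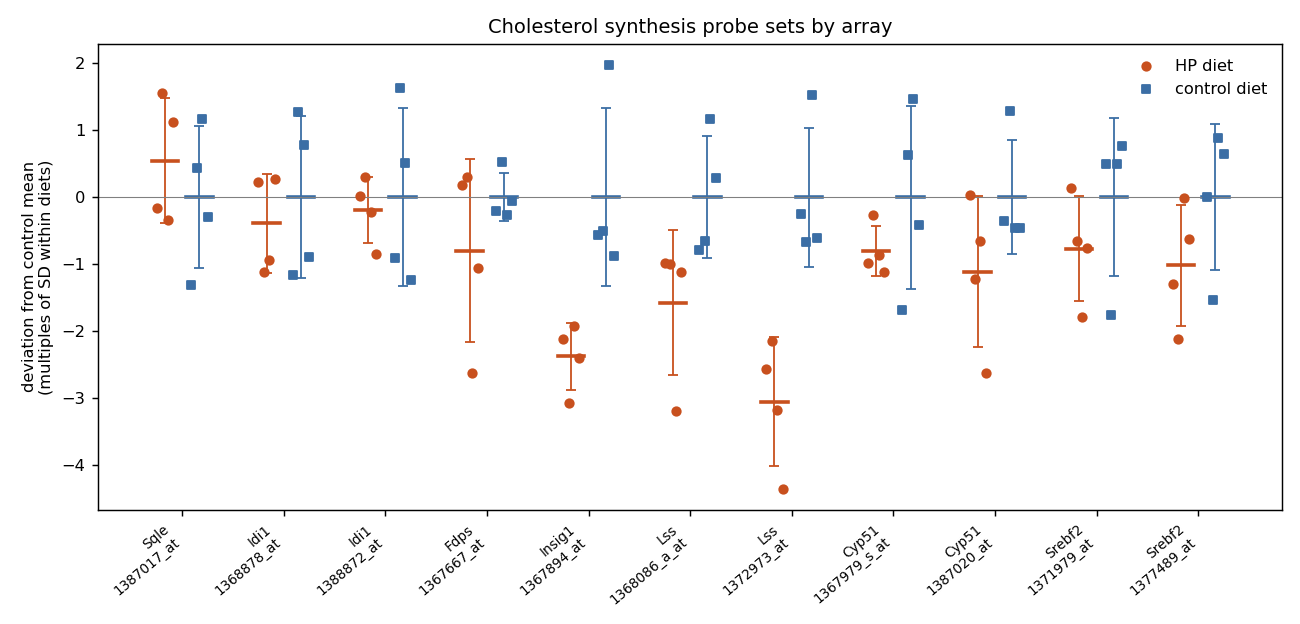
Deviation of each array from the mean of the control arrays, in multiples of the pooled SD within diets, for the 11 probe sets, with HP arrays as circles and control arrays as squares (n = 4 each). Thick lines are means and bars are SDs. HP and control arrays are separate for Insig1 and for both Lss probe sets, and they overlap for the other 8.

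Insig1, the endoplasmic reticulum protein that retains SREBP and is itself switched on by it, was lower in every HP array. Its deviations were -10.9, -15.8, -9.9 and -12.4 millionths in HP kidneys, against -3.0, -2.6, 10.1 and -4.5 millionths in control kidneys. The groups did not overlap, and control replicate 3 was far above the other 3 control arrays. The difference was -12.2 millionths, with SDs of 2.59 in HP and 6.80 in control kidneys. The standardized difference was -2.38 (95% interval -3.97 to -0.79, adjusted p = 0.12, exact permutation p = 0.029). Without control replicate 3 it was -4.22, since the spread of the control arrays was then smaller, and the adjusted p by limma was 0.068.

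Srebf2 encodes SREBP-2, the transcription factor of the pathway, and neither of its probe sets passed. For the brighter one (1371979_at) the deviations were 0.1, -0.4, -1.1 and -0.5 millionths in HP kidneys, against 0.3, -1.0, 0.3 and 0.4 millionths in control kidneys. The arrays overlapped through control replicate 2, the lowest control array. This gave a standardized difference of -0.77 (95% interval -2.68 to 1.14, adjusted p = 0.69). The dimmer probe set (1377489_at) read -1.6, -2.6, 0.0 and -0.7 millionths in HP kidneys and 0.0, -1.8, 1.1 and 0.8 millionths in control kidneys. Here, too, control replicate 2 was the lowest of its diet, below 3 of the 4 HP arrays. Its standardized difference was -1.02 (95% interval -2.69 to 0.66, adjusted p = 0.51). With 1 array left out the standardized differences ran from -2.20 (without control replicate 2) to -0.45 (without HP replicate 3) on the brighter and from -2.01 (without control replicate 2) to -0.69 (without HP replicate 2) on the dimmer probe set, and neither was called.

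Idi1, which interconverts the isoprenoid building blocks isopentenyl and dimethylallyl diphosphate, showed no separation of the diets. The brighter probe set (1368878_at) deviated by 0.5, -2.5, -2.1 and 0.6 millionths in HP kidneys and by -2.6, 2.9, 1.8 and -2.0 millionths in control kidneys. The range of the HP arrays lay within that of the control arrays. The standardized difference was -0.39 (95% interval -2.0 to 1.22, adjusted p = 0.83). For the other probe set (1388872_at) it was -0.19 (95% interval -1.90 to 1.52, adjusted p = 0.94), with deviations between -0.8 and 0.3 millionths in HP kidneys and between -1.2 and 1.6 millionths in control kidneys. The sign of both turned when control replicate 2 was left out.

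Fdps, the synthase that makes farnesyl diphosphate for sterols and for protein prenylation, varied more among HP than among control kidneys. Its deviations were 0.4, 0.7, -6.2 and -2.5 millionths in HP kidneys, against -0.5, 1.2, -0.6 and -0.1 millionths in control kidneys. HP replicates 3 and 4 lay below all control arrays, and HP replicates 1 and 2 lay within them. The SD was 3.24 millionths in HP and 0.856 millionths in control kidneys, and the standardized difference was -0.80 (95% interval -2.41 to 0.81, adjusted p = 0.60). Without HP replicate 3 the difference was -0.45 millionths, against -1.90 with all arrays, and the standardized difference was -0.35 (adjusted p = 0.88).

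Sqle, the squalene epoxidase that carries out an early oxidation on the way to sterols, was the only member with a higher mean in HP kidneys. Its deviations were -4.3, 40.5, -8.9 and 29.2 millionths in HP kidneys, against -34.1, 11.5, 30.5 and -7.8 millionths in control kidneys. Each diet held 2 high and 2 low arrays. The pooled SD of 26.1 millionths was the widest of the 11 probe sets and stood at the 94.8th percentile of all SDs. The difference of 14.1 millionths was a standardized difference of 0.54 (95% interval -1.04 to 2.13, adjusted p = 0.74). With 1 array left out the difference ran from 2.77 millionths (0.12 pooled SDs, without control replicate 1) to 24.3 millionths (1.02 pooled SDs, without control replicate 3).

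Lss, lanosterol synthase, closes the epoxide of squalene into the sterol ring and was lower in every HP array on both probe sets. On 1372973_at the deviations were -7.2, -6.0, -8.9 and -12.3 millionths in HP kidneys, against -0.7, -1.9, 4.3 and -1.7 millionths in control kidneys. The lowest control array was 4.14 millionths above the highest HP array. The difference of -8.61 millionths, with SDs of 2.71 in HP and 2.92 in control kidneys, was a standardized difference of -3.06 (95% interval -4.66 to -1.46). This was the largest standardized difference of the 11, with an adjusted p of 0.06 by limma and an exact permutation p of 0.029.

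On the dimmer Lss probe set, 1368086_a_at, the deviations were -2.7, -2.7, -8.5 and -3.0 millionths in HP kidneys, against -2.1, -1.8, 3.1 and 0.7 millionths in control kidneys. The groups were separate by 0.55 millionths, and HP replicate 3 was far below the other HP arrays. The standardized difference was -1.57 (95% interval -3.17 to 0.03, adjusted p = 0.27, exact permutation p = 0.029). The 2 probe sets read the same gene in the same 8 kidneys and are not independent of each other.

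Cyp51 encodes the demethylase that removes a methyl group from lanosterol, and its probe sets overlapped between diets. On the brighter one (1367979_s_at) the deviations were -9.8, -2.7, -8.8 and -11.1 millionths in HP kidneys, against -16.9, 6.3, 14.7 and -4.1 millionths in control kidneys. All 4 HP arrays lay below the control mean, while control replicate 1 lay below all of them. The SD was 3.73 millionths in HP and 13.6 millionths in control kidneys, and the standardized difference was -0.81 (95% interval -2.39 to 0.78, adjusted p = 0.59). With 1 array left out it ran from -2.07 (without control replicate 1) to -0.40 (without control replicate 3), and it was not called.

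The other Cyp51 probe set (1387020_at) deviated by 0.1, -3.7, -2.0 and -8.0 millionths in HP kidneys and by -1.1, 3.9, -1.4 and -1.4 millionths in control kidneys. HP replicate 1 lay within the control range and the other 3 HP arrays lay below it. For this probe set the standardized difference was -1.11 (95% interval -2.71 to 0.48, adjusted p = 0.44).

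**Figure D2:**
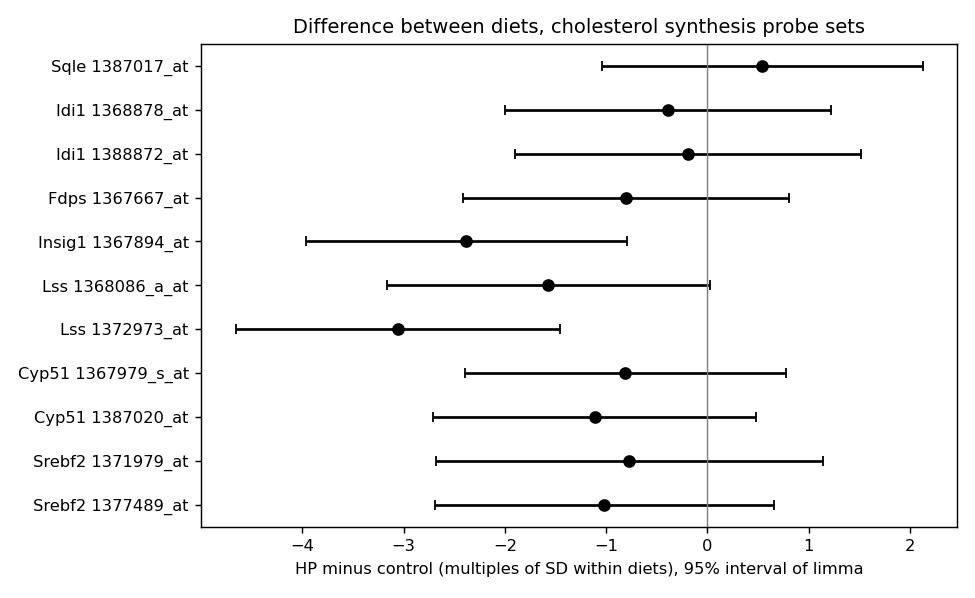
Standardized difference between diets (HP minus control, in multiples of the pooled SD within diets) of the 11 probe sets, with the 95% interval of limma. The interval leaves out 0 for Insig1 and Lss 1372973_at, whose adjusted p over all probe sets are 0.12 and 0.06.

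Over the 11 probe sets the median standardized difference was -0.81, against -0.21 over all probe sets tested. The largest unadjusted p that passed the adjustment was 0.00204, and Lss 1372973_at had an unadjusted p of 0.00288 by limma. The probe sets that limma called had a median absolute standardized difference of 4.17, and the members ranged from -3.06 to 0.54. The part of a member's variation that lay between the diets ran from 1.17% (Idi1 1388872_at) to 75.7% (Lss 1372973_at).

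Within a diet, some arrays were high or low for several members. Control replicate 3 was the highest control array in 6 of 11 probe sets, and it was the highest in 26.2% of all probe sets tested. Control replicate 1 was the highest in 0 and the lowest in 4 of the 11. Among HP arrays, replicate 2 was the highest in 5 of 11, and replicates 3 and 4 were the lowest in 4 each. These counts are a description, since probe sets of the same gene and the same kidneys are not independent.

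With 1 array left out in turn, 0 of 11 passed in each of the 8 runs, and between 8 and 10 of 11 differences were below 0. The smallest adjusted p was 0.068 for Insig1 (without control replicate 3). For Lss 1372973_at the adjusted p ran from 0.087 to 0.12.

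**Figure D3:**
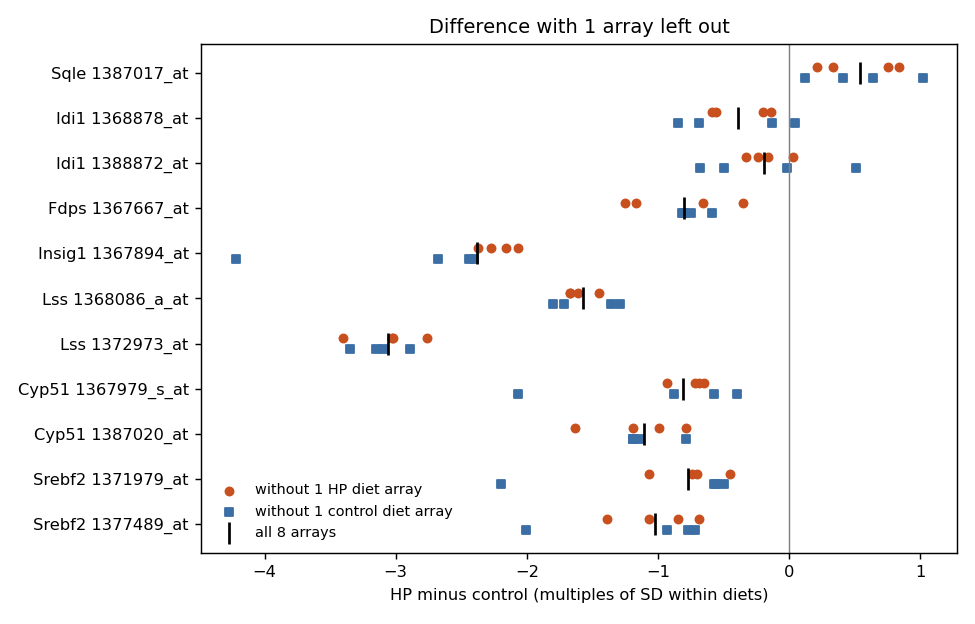
Standardized difference of each probe set (HP minus control, in multiples of the pooled SD within diets) with 1 HP array left out (circles) or 1 control array left out (squares), and with all 8 arrays (vertical mark). Insig1 and both Lss probe sets stay below 0 throughout, and Insig1 moves to -4.22 without control replicate 3.

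The other genes of the pathway were read from 6 lists, with the brightest probe set of each gene. Of 73 genes in the lists, 63 were measured, and 5 of them passed, all higher in HP kidneys (7.94%, against 4.08% of all probe sets). None was lower, and 58 did not pass. After quantile normalization 17 of the 63 passed, all lower, after centring 0 passed, and with 1 array left out 1 to 2 passed. Those 17 included Npc2, Lrp1 and Abca1, which are among the 5 called higher on the deposited values. The median standardized difference over the 63 genes was -0.06. The other genes of the lists were not analysed here.

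Of 14 other synthesis enzymes, 0 passed, with a median of -0.72 and 9 of 14 below 0. Fdft1, which makes squalene from farnesyl diphosphate, deviated by -40.9, -71.8, -19.5 and -39.6 millionths in HP kidneys, against 34.5, -37.8, -16.9 and 20.3 millionths in control kidneys. Its groups overlapped through control replicate 2, and the standardized difference was -1.53 (adjusted p = 0.28). On a dimmer Fdft1 probe set (1389906_at) it was -1.94 (adjusted p = 0.18), and there the groups did not overlap.

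Tm7sf2, a sterol reductase that acts after Cyp51, deviated by -39.5, -25.3, -12.6 and -28.0 millionths in HP kidneys, against 5.6, -5.4, 12.7 and -12.8 millionths in control kidneys. HP replicate 3 was level with control replicate 4, and the other 3 HP arrays lay below all control arrays. Its standardized difference was -2.35 (adjusted p = 0.12), and after quantile normalization its difference was above 0. Lbr, the lamin B receptor, which has the same reductase activity, had -2.02 (adjusted p = 0.17), and Ebp, a sterol isomerase, had -1.53 (adjusted p = 0.30).

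Of 7 genes for SREBP processing and sterol sensing, 0 passed, and the median was -0.10. Mbtps1, the site-1 protease that first cuts SREBP in the Golgi apparatus, was higher in every HP array, with deviations of 0.8, 1.9, 1.3 and 1.4 millionths in HP kidneys against 0.0, -0.3, 0.0 and 0.3 millionths in control kidneys. Its pooled SD was 0.358 millionths, the standardized difference was 3.79 and the adjusted p was 0.099, and the difference was below 0 after quantile normalization and after the common shift of centring. Srebf1, which encodes the SREBP of fatty acid synthesis, had -0.82 (adjusted p = 0.58). Insig2, the relative of Insig1, had -0.49 (adjusted p = 0.78), and Faf2, which helps to extract Insig1 from the membrane for breakdown, had -1.08 (adjusted p = 0.46).

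Of 12 genes for uptake and intracellular transport, 2 passed and both were higher in HP kidneys. The median was 0.37, with 6 of 12 below 0. Only the 4 genes with the smallest p are named here, and those were all higher. Npc2, the lysosomal protein that hands cholesterol on from degraded lipoproteins, rose by 27.9 millionths. Its deviations were 31.0, 35, 20.5 and 25.2 millionths in HP kidneys, against -4.8, 0.1, 2.8 and 2.0 millionths in control kidneys, with no overlap. The standardized difference was 5.46 (95% interval 3.87 to 7.05, adjusted p = 0.012), and the call held with each array left out in turn, while the difference was below 0 after quantile normalization and after centring, whose common shift of -61.05 millionths is larger than the difference itself.

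Lrp1, a large receptor for lipoproteins and other ligands, deviated by 31.2, 57.0, 55.5 and 29.8 millionths in HP kidneys, against -13.9, 1.9, 3.1 and 8.8 millionths in control kidneys. All HP arrays were above all control arrays, the standardized difference was 3.45 (adjusted p = 0.042), and the sign turned after quantile normalization and with the common shift of centring. A dimmer Lrp1 probe set (1396767_at) had -0.96 (adjusted p = 0.74), so the 2 probe sets of this gene did not move together. Mylip, a ubiquitin ligase switched on by sterols through LXR, had 2.56 (adjusted p = 0.095), and Stard3, a sterol carrier of late endosomes, had 2.51 (adjusted p = 0.10).

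Of 11 genes for efflux, storage and oxysterols, 2 passed and both were higher, and the median was 1.18. Abca1, the pump that exports cholesterol to apolipoprotein A-I, deviated by 25, 43.8, 39.8 and 41.0 millionths in HP kidneys, against -4.0, -2.9, 16.3 and -9.4 millionths in control kidneys. The groups were separate, and the difference reached 3.77 pooled SDs (adjusted p = 0.033) but was below 0 after quantile normalization and with the common shift of centring. The 3 dimmer Abca1 probe sets had 2.83, 3.31 and 2.47 (adjusted p = 0.073, 0.047 and 0.10), each with no overlap between diets.

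Soat1, which esterifies cholesterol for storage, deviated by 48.4, 52.1, 33.3 and 30.9 millionths in HP kidneys, against -19.1, 13.5, 1.9 and 3.7 millionths in control kidneys. Its standardized difference was 3.35 (adjusted p = 0.045), again with the opposite sign after quantile normalization and with the shift of centring, and a dimmer probe set (1369002_at) had 0.47 (adjusted p = 0.79). Abcg1, another sterol exporter, had 1.76 (adjusted p = 0.22) with overlapping arrays, and its dimmer probe sets had 0.62 and 0.17 (adjusted p = 0.70 and 0.94). Lcat, the plasma enzyme that esterifies cholesterol on lipoproteins, had 1.22 (adjusted p = 0.42).

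Of 11 fatty acid synthesis genes that SREBP controls, 1 passed, and the median was -0.33 with 8 of 11 below 0. Fads1, the delta-5 desaturase of polyunsaturated fatty acids, deviated by 23.8, 13.8, 11.4 and 20.2 millionths in HP kidneys, against 6.1, -0.4, -4.8 and -0.8 millionths in control kidneys. All HP arrays were above all control arrays, and the standardized difference was 3.37 (adjusted p = 0.045), with a difference of 0.00 after quantile normalization and below 0 with the shift of centring. Acly, which makes cytosolic acetyl-CoA from citrate, was below all control arrays in every HP array but did not pass, with -2.57 (adjusted p = 0.095). Acss2, which makes acetyl-CoA from acetate, had -1.47 (adjusted p = 0.30) and Me1, the NADPH-making malic enzyme, had -1.15 (adjusted p = 0.42). A dimmer Me1 probe set (1370067_at) had -1.93 (adjusted p = 0.18), with no overlap between diets.

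Of 8 genes of the isoprenoid branches, which use the same diphosphates for prenylation, dolichol and ubiquinone, 0 passed and the median was 0.14. Fnta and Fntb, the subunits of farnesyltransferase, had 0.83 and 0.47 (adjusted p = 0.62 and 0.78). Rabggtb, a subunit of the transferase for Rab proteins, had -1.22 (adjusted p = 0.43), and Pdss2, of ubiquinone side chain synthesis, had -0.87 (adjusted p = 0.61).

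**Figure D4:**
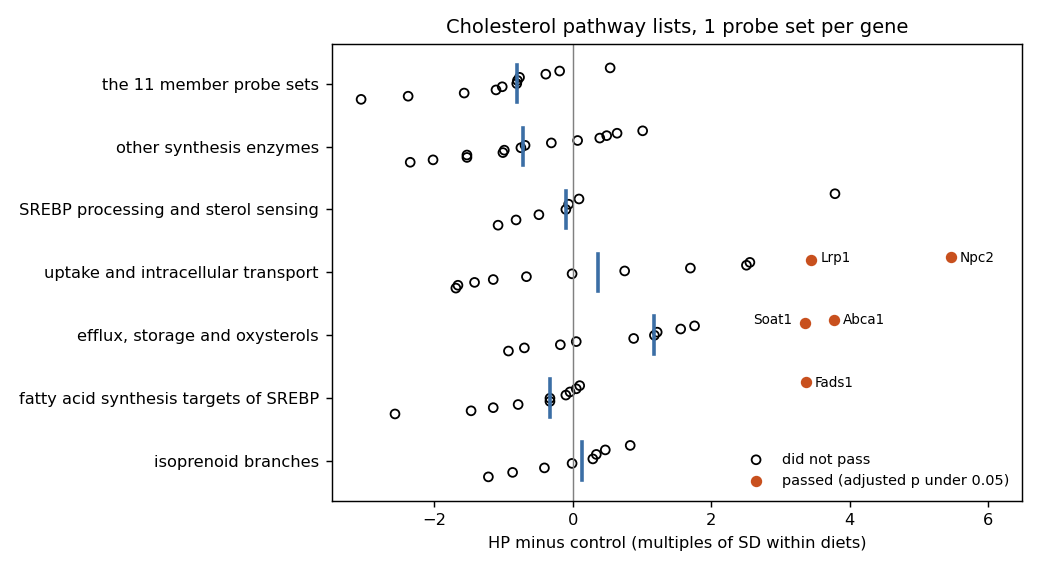
Standardized differences (HP minus control, in multiples of the pooled SD within diets) of the 11 cholesterol synthesis probe sets and of 63 genes in 6 lists, 1 probe set per gene. Genes that passed limma are filled, the others are open, and blue lines are medians. The 5 filled points all lie above 0, and the medians are -0.81 for the 11 probe sets, -0.72 for the other synthesis enzymes and 1.18 for efflux, storage and oxysterols.

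With 1 array left out in turn, Npc2 was called in 8 of 8 runs, Abca1 in 2 (adjusted p from 0.029 without control replicate 3 to 0.089 without control replicate 2), Fads1 in 1 (0.05 without HP replicate 3 to 0.11), and Lrp1 and Soat1 in 0 (0.053 to 0.10 and 0.065 to 0.12). The calls of Lrp1 and Soat1 thus ended whichever array was left out.

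Counting all 104 probe sets of these genes, 6 passed as higher and 1 as lower, while 2.95% and 1.13% of all probe sets did. The lower one, singled out after its values were seen, was a probe set of Lrpap1 (1370929_at), a chaperone of lipoprotein receptors, with a standardized difference of -3.72 (adjusted p = 0.035). The brighter probe set of Lrpap1 had -1.15 (adjusted p = 0.42). Rank products called 8 of the 63 genes higher and 4 lower at an FDR under 0.05, against 3.40% and 2.31% of all probe sets. Fdft1 (FDR 0.038) and Tm7sf2 (FDR 0.046) were called lower, and Scd and Thrsp were called in both directions. Higher by rank products were Lrp1 (FDR 0.03), Abca1 (FDR 0.038), Soat1 (FDR 0.033), Mylip (FDR 0.0035), Abcg1 (FDR 0.0026) and Ch25h, while Npc2 did not pass (FDR 0.058). These calls follow raw differences, so Abcg1 (1.76 pooled SDs) was called and Npc2 (5.46 pooled SDs) was not.

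**Figure D5:**
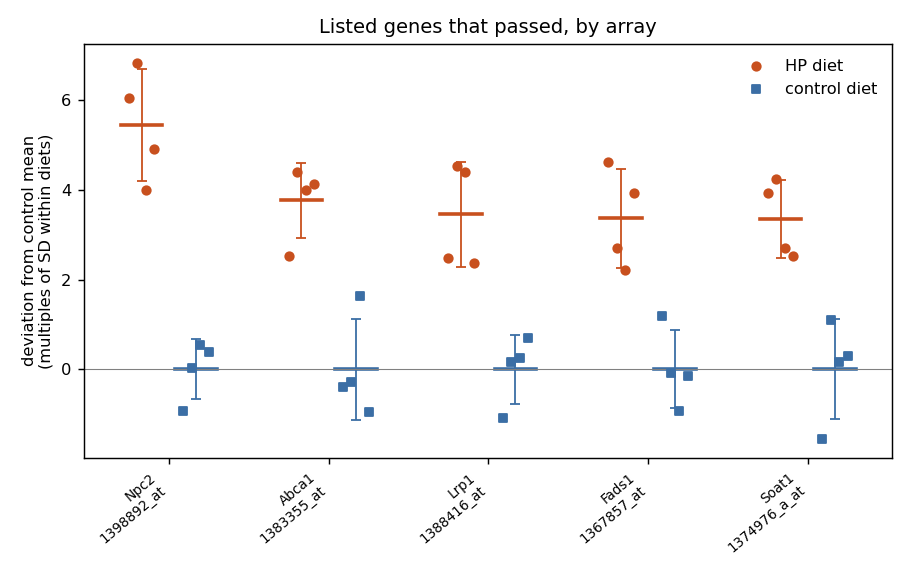
Deviation of each array from the mean of the control arrays, in multiples of the pooled SD within diets, for the 5 listed genes that passed limma, with HP arrays as circles and control arrays as squares (n = 4 each). Thick lines are means and bars are SDs. Every HP array lies above every control array for each gene.

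Markers of macrophages and fibroblasts, read on the brightest probe set of each gene, were mostly higher in HP kidneys as well. All 8 macrophage markers rose in HP kidneys (7 passed after quantile normalization and 3 after centring, with all 8 higher). Their mean level ran from 7.81341 to 7.81438 in HP and from 7.81189 to 7.81220 in control arrays. Counting all 11 probe sets of these markers, 9 passed as higher. A dimmer Aif1 probe set (1369489_at) was lower in every HP array (-2.26, adjusted p by limma 0.14), and a dimmer Mpeg1 probe set had 1.08 (adjusted p by limma 0.45). Of 8 fibroblast markers 6 rose and 2 did not pass (4 passed after quantile normalization and 2 after centring), with a mean level from 9.18041 to 9.18096 in HP and from 9.17846 to 9.17883 in control arrays. On the deposited scale Npc2, Abca1, Lrp1 and Soat1 were higher in the same arrays. After quantile normalization the differences of these 4 genes were below 0. Centring also put them below 0, since its common shift of -61.05 millionths is larger than each of them. The macrophage markers differed by 664.5 millionths (Csf1r) or more, so this shift could not turn their signs. The part of these cells in the higher values was not tested.

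The proximal tubule list was read as well, and whether the members are expressed mainly in these cells was not tested. Its defining markers were at high levels (10.4 to 13.3 on the deposited scale), as the label kidney implies. On the brightest probe set of each gene, 0 of its 8 markers passed and 7 had a lower mean in HP kidneys (1 after quantile normalization, 8 after centring). The median standardized difference was -1.46, and the mean level ran from 11.83219 to 11.83220 in HP arrays and stood at 11.83220 in control arrays. Slc13a3 had -3.04 and a dimmer Slc34a1 probe set (1370610_at) had -3.03, each with no overlap between diets (adjusted p by limma 0.06 for both). Rank products called this Slc34a1 probe set lower (FDR 0.016), and the paper lists it as down. The part of tubule cells in the lower values of Insig1 and Lss was not tested. Of 6 adrenal cortex markers 0 passed and all lay between 6.20 and 6.66, near the low end of the scale. Of 8 adipocyte markers 0 passed (2 as higher after quantile normalization and 1 after centring), and 4 had a higher and 4 a lower mean. Fabp4 and Cfd were above all control arrays in every HP array. The mean level of the adipocyte list ran from 7.34542 to 7.34564 in HP and from 7.34508 to 7.34540 in control arrays. Of 8 liver markers 1 passed, Fgb, which was higher on its brightest probe set (4.26 pooled SDs). The dimmer Fgb probe sets had -1.62 and 0.10 (adjusted p by limma 0.26 and 0.97).

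The genes whose pattern over the 8 arrays was most like the mean of the members (1 probe set per gene, each scaled to unit variance) were Hyal3 (r = 0.972), Zc3h10 (r = 0.967), Fndc5 (r = 0.964), Ddx56 (r = 0.963) and Calcr (r = 0.959). They were the top 5 of 14210 genes ranked over the same 8 arrays, and the r values are a description. Their standardized differences ran from -2.02 (Ddx56) to -1.43 (Hyal3), and the smallest adjusted p among them was 0.24 (Zc3h10).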

How the data were processed

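Kidney RNA was hybridized to Affymetrix Rat Genome arrays, and the authors condensed the probes over all 8 arrays with DFW into the deposited values, which were taken to be log2 values because the sources used here do not state the base. No counts or depth exist for arrays, and their number (4 per diet) limits the precision. Of 31099 probe sets, 57 Affymetrix controls were left out. Of the other 31042, 20826 have 1 gene symbol in the platform annotation, 436 have several and 9780 have none listed. limma 3.58.1 in R 4.3.3 (prior degrees of freedom 0.772) tested all 31042, HP minus control, with Benjamini-Hochberg adjustment and an adjusted p under 0.05. Exact two-sided permutation tests used 70 arrangements, and rank products used 16 pairs and 1000 permutations. The list genes named are those with the smallest p, up to 4 per list. Members, lists and marker genes were chosen with earlier results of these data known. The limma and rank product steps were checked on simulated data. Alternatives were quantile normalization, median centring, other moderation, array weights, a filter on low means, a replicate block and leaving out each array. Python 3.11.15, numpy 2.4.6, pandas 2.3.3 and scipy 1.17.1 were used for the other steps.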

Additional observations from a re-analysis of the deposited data

Results flagged for a closer look

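In 70 groups of 4 arrays (11 member and 24 listed probe sets, 2 diets), 5 had an array whose gap to its nearest neighbour as a share of the whole range exceeded the critical value of Dixon's test, and chance gives about 1 in 20. For Insig1, control replicate 3 was high, at 10.1 millionths from the control mean (gap 0.872 of the range). For Lss 1368086_a_at, HP replicate 3 was low, at -8.5 millionths (0.948). For Cyp51 1387020_at, control replicate 2 was high, at 3.9 millionths (0.934). Control replicate 2 was low for Srebf2 1371979_at, at -1.0 millionths (0.897), and for Lcat, at -1.3 millionths (0.896).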

How the results depend on the processing

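Of 164 recomputed member differences (11 probe sets under up to 15 settings each), 153 kept their sign and their side of the threshold. All differences in this paragraph are HP minus control in millionths. Quantile normalization left 15255 of 31042 probe sets with the same value in all arrays of each diet, so small spreads decide its tests. It called 8030 probe sets (316 higher, 7714 lower), 4118 of which had no spread within diets, against 1265 in the fit of the deposited values (915 higher, 350 lower). It called 3 members, all lower, namely Insig1 (-262.68), Lss 1368086_a_at (-179.77) and Cyp51 1387020_at (-171.46). Each of these 3 had no spread within diets after this step, which decides the call. Of the 63 listed genes it called 17, all lower. Npc2, Lrp1 and Abca1, called higher on the deposited values, were among those 17. Opposite in sign to the deposited values were Sqle (-106.29), Fnta (-406.08), Lcat (-44.15), Fntb (-421.00), Soat1 (-165.83), Abca1 (-86.58), Lrp1 (-180.00), Mbtps1 (-83.13), Npc2 (-1229.50), Stard3 (-36.73), Insig2 (112.56) and Tm7sf2 (57.34). Centring each array on its median moved every difference by -61.05 millionths, so every smaller positive difference turned by construction, and left 97 calls (78 higher, 19 lower), 0 of them among the 63 listed genes. The signs so turned were those of Sqle (-46.92), Fnta (-60.36), Fads1 (-43.77), Lcat (-59.58), Fntb (-57.33), Soat1 (-19.87), Abca1 (-23.66), Lrp1 (-17.67), Mbtps1 (-59.70), Npc2 (-33.13) and Stard3 (-43.77). Without moderation there were 693 calls and 1 listed gene, Npc2. The replicate numbers share only a number (correlations of their deviations of 0.121, 0.0887, 0.0626 and 0.00148), and the fit with the replicate block gave 369 calls, 0 members and 1 listed gene, Fads1. With each array left out in turn there were 420 to 891 calls (420 without control replicate 3), 0 members called, 8 to 10 members below 0 and 1 to 2 listed genes called. Among members, signs turned only for Idi1: 1388872_at ran from -0.60 to 0.35 (0.03 without HP replicate 4, 0.35 without control replicate 2), and 1368878_at from -1.74 to 0.08 (0.08 without control replicate 2). Rank products called 0 members in all their settings. The number of arrays, 4 per diet, limits what the adjusted threshold can show.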
